A study of Homo sapiens with 74 samples.

Results

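The genes described here encode the proteins of the mitochondrial ribosome that carry the symbols MRPL or MRPS and a number. The rule that picks them reads the symbol and no measured value, and 78 of the 28131 genes in the count tables met that rule. Of these, 49 are named MRPL and 29 MRPS. By their place in the ribosome 51 belong to the large subunit and 26 to the small subunit, because MRPS30 and MRPS18A, despite their names, sit in the large subunit. MRPS36 has since been assigned to a dehydrogenase complex of the citric acid cycle and is kept here only because its symbol meets the rule.

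The mitochondrial ribosome translates the few messenger RNAs made from mitochondrial DNA, which encode core subunits of the respiratory chain and the ATP synthase. All of its proteins are encoded in the nucleus, made in the cytosol and imported, so their messenger RNAs must be supplied together from genes on many chromosomes. The small subunit binds and decodes the messenger RNA, and the large subunit joins the amino acids and carries the exit tunnel. In erythroid cells mitochondria also carry the first and last steps of haem synthesis.

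The study removed or depleted DOT1L, the methyltransferase of histone H3 lysine 79, or removed ENL, a chromatin reader encoded by MLLT1, in leukaemia cells. Polyadenylated RNA was sequenced from K562 and HEL, both established human erythroleukaemia lines. K562 cells were wild type (3 columns), DOT1L-/- (3 columns, DOT1L KO) or ENL-/- (3 columns, ENL KO). HEL cells were control (2 libraries) or DOT1L knockdown (2 libraries, DOT1L KD). How the knockouts and the knockdown were made, and whether a knockout is 1 clone, is not given in the sources used here. Columns 2 and 3 of the K562 controls were identical gene by gene and were counted as 1 sample, which left 2 control libraries in K562. Nothing states that libraries of a group came from separate cultures, so p-values measure only the spread between these libraries, which may be technical. A lane is named in the labels of the wild type and DOT1L-/- samples but in none of the ENL-/- labels, so a batch difference between ENL KO and the controls cannot be told apart from the knockout.

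Total counts per library were 15404944 to 29236703 fragments in K562 and 12151495 to 12811688 reads in HEL. DOT1L mRNA was 256 to 270 CPM (counts scaled to a common library size with the TMM method) in the K562 controls and 176 to 186 in the DOT1L KO, and in HEL it was 87.4 to 97.5 in the controls and 29.1 to 30.0 in the KD. MLLT1 mRNA was 214 to 219 CPM in the K562 controls and 153 to 157 in the ENL KO. Both knocked-out genes thus kept most of their mRNA, and because the deleted part is not given, this level does not check the knockouts. Of the erythroid identity genes, the fetal globin HBG2 had at least 1643 CPM in every library. Of 8 markers of other cell types, MS4A1 was at 0 in every library and CD3E was at most 0.521 CPM, whereas PECAM1 reached 525 CPM in HEL, and LYZ 323 and CD3D 72.0 in K562.

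The genes were compared first by promoter, since the respiratory and mitoribosomal genes are known for GC-rich promoters bound by ETS factors such as GABP, by YY1 and by NRF1. RefSeq promoters of GRCh38.p14, 250 bases before to 50 after the start, were matched for 69 of the 78 genes. MRPL2, MRPL10, MRPL13, MRPL15, MRPL21, MRPL23, MRPL35, MRPS28 and MRPS36 had none. Each motif was searched on both strands: CCGGAAG for ETS factors, AAGATGG for YY1 and CCAAT for NF-Y as exact letters, and the GC-rich motif of NRF1 with 1 position open to any base. The last 3 letters of the ETS motif can also be the first 3 of the YY1 motif, so these matches can overlap. The 5 promoters below belong to the genes whose values the results turn on. Capitals mark matches to the ETS, YY1 or NRF1 motif on either strand.
MRPS30, chr5:44808697-44808996, plus strand: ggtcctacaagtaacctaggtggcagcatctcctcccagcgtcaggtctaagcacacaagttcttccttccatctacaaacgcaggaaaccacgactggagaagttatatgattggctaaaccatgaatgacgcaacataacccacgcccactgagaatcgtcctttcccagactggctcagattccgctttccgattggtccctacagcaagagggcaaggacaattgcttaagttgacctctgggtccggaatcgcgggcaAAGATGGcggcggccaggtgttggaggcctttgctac
MRPS33, chr7:141014903-141015202, minus strand: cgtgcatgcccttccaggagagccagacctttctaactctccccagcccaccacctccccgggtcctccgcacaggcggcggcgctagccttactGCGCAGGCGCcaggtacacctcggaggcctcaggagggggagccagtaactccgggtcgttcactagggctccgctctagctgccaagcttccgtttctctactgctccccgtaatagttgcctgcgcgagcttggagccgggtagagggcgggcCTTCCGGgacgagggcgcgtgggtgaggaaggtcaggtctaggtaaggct
MRPS10, chr6:42217812-42218111, minus strand: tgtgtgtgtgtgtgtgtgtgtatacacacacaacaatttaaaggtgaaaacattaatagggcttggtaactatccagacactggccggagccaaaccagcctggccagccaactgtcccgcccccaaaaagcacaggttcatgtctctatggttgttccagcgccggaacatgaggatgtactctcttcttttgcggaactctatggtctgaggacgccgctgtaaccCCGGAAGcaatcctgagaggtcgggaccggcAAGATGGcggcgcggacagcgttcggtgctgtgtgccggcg
MRPL46, chr15:88467339-88467638, minus strand: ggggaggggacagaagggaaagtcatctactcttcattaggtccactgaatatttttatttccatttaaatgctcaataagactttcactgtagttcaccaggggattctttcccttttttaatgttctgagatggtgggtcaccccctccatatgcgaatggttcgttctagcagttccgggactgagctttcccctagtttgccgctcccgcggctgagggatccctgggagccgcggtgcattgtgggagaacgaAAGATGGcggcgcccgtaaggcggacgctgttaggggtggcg
MRPS11, chr15:88467458-88467757, plus strand: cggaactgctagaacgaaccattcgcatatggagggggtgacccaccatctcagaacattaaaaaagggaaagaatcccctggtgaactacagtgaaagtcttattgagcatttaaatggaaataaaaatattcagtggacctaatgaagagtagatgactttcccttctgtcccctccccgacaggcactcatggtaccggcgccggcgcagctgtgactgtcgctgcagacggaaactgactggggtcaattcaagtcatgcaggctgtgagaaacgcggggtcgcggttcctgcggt

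In MRPS30, MRPS10 and MRPL46 the YY1 letters lie 13, 9 and 8 bases after the start, within the part that RefSeq marks as transcribed. MRPS10 also holds an ETS match 22 bases before its start. MRPS33 instead holds an ETS match at its start and an NRF1 match 155 bases before it. MRPL46 and MRPS11 are divergent neighbours on chromosome 15 whose starts lie 65 bases apart in the count tables. RefSeq starts MRPS11 255 bases further from MRPL46 than the tables do, so that window holds part of the transcribed region of the tables' model and no match.

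Across the 69 promoters, 29 (42.0%) held the ETS letters, against 18.9% of 10714 promoters of genes tested in K562. The YY1 letters were in 23 (33.3%), against 7.62%. The NRF1 letters were in 9 (13.0%, against 11.6%) and CCAAT in 20 (29.0%, against 36.8%). At least 1 of the ETS, YY1 and NRF1 motifs was present in 48 promoters (69.6%), against 33.1% of the genes tested, and 9 held both ETS and YY1. A match describes the letters of the window and is not evidence of binding.

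**Figure D1:**
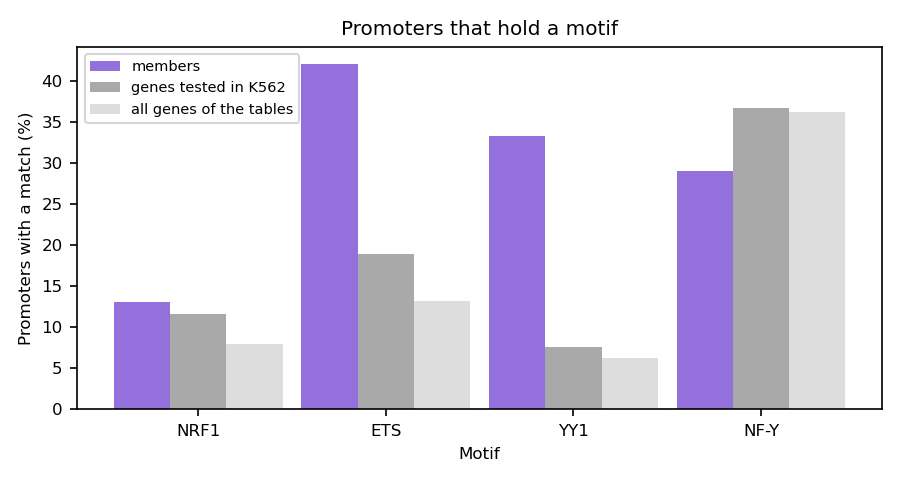
The share of promoters (%) with at least 1 match to each motif is shown as bars for the mitoribosomal genes (69 promoters), for genes tested in K562 and for all genes of the tables with a promoter. The ETS and YY1 bars of the mitoribosomal genes, at 42.0% and 33.3%, stand above the other bars of their motif, whereas the NRF1 and NF-Y bars do not stand apart in that way.

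In the controls these genes were expressed well above the typical gene. Per kilobase of exon, their median level was 43.0 CPM in K562 and 31.2 in HEL, against 6.78 and 8.43 for all genes tested. In K562 the order was led by MRPL12, which forms the stalk that recruits translation factors (184 CPM per kilobase), MRPS34 of the small subunit (180) and MRPL41 of the large subunit (149). HEL had another order: MRPL51 led with 186 CPM per kilobase, followed by MRPS15 (131) and MRPL37 (121). Of the K562 leaders, MRPL12 was 10th in HEL with 64.2 CPM per kilobase, MRPS34 48th with 27.4 and MRPL41 61st with 17.1. The HEL leaders stood high in K562 as well, with MRPS15 6th, MRPL37 7th and MRPL51 9th. Spearman's rho of the per-length levels between the lines was 0.355 over 72 genes, which describes these genes only. The 6 genes whose counting was marked as uncertain were left out. The tables count reads in HEL and fragments in K562, so levels were not compared between the lines beyond their order.

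The counting of 6 genes is uncertain because their models overlap or repeat. MRPS24, a small subunit protein, had 0 to 2 counts in every library, and 87.1% of its exonic bases are shared with the readthrough gene URGCP-MRPS24. MRPS18B had 61 to 125 counts in K562 and 0 in all 4 HEL libraries, which allows up to 3 counts in each. The tables list MRPS18B on 7 sequences, chromosome 6 and its alternate versions, and a count of 0 there does not show that the gene is silent. MRPL23, MRPL45 and MRPS36 are listed on 2 sequences each, and 73.8% of the exonic bases of MRPS18C are shared with ABRAXAS1. The 3 lowest levels per length in both lines were those of MRPS36, MRPS18B and MRPS24, all among the 6 marked genes. MRPS11, with no overlap, was also low, at 6.88 CPM per kilobase in K562. MRPS24 did not pass the filter on low counts anywhere and MRPS18B did not pass it in HEL, which left 77 genes to test in K562 and 76 to test in HEL.

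Summed over all 78 genes, the level was 5865 and 5730 CPM for the K562 controls. DOT1L KO libraries had 5560, 5435 and 5195 and ENL KO libraries 6223, 6044 and 5940. All DOT1L KO libraries lay below the controls and all ENL KO libraries above them. In HEL the sum was 4289 and 4381 CPM for controls against 4550 and 4563 for the KD, with no overlap. Both subunits moved with the total: the small subunit summed to 2018 to 2059 CPM in the K562 controls, to 1837 to 1922 without DOT1L and to 2076 to 2165 without ENL. With upper-quartile scaling the ENL KO (5803 to 6176) and the controls (5733 to 5891) overlapped. A sum is dominated by the most abundant genes, and in bulk RNA fewer cells of a type and less RNA per cell cannot be told apart.

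**Figure D2:**
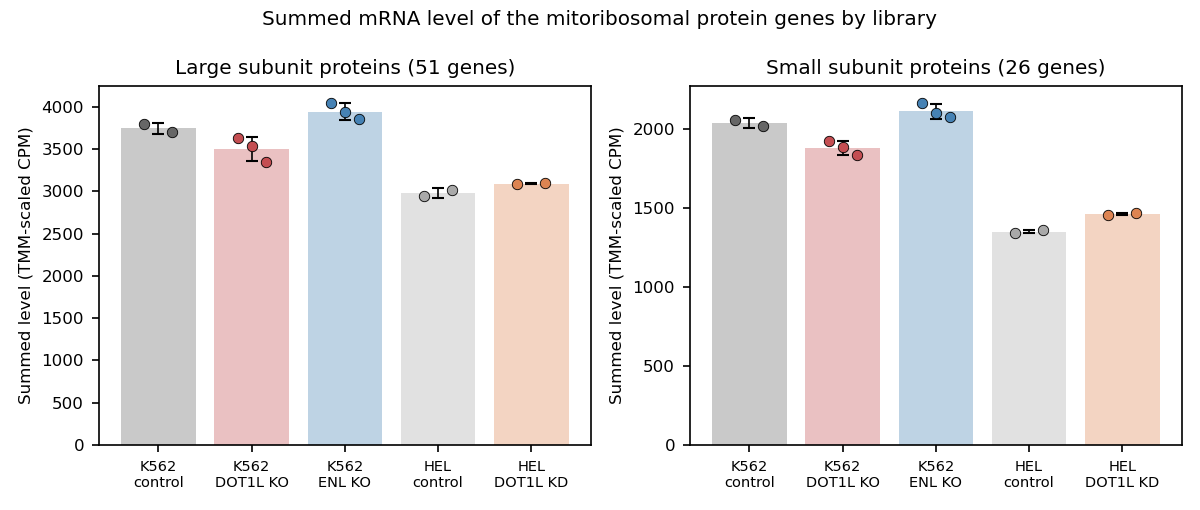
Summed level (TMM-scaled CPM) of the large subunit genes, left, and the small subunit genes, right, in each library (points) of the 5 groups; bars are group means and error bars the SD (n = 2 or 3 libraries). In both panels every DOT1L KO library lies below the K562 controls and every ENL KO library above them, and in HEL the KD libraries lie above the controls.

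In DOT1L KO K562 cells some mitoribosomal mRNAs were lower than in the controls by moderate amounts, and few were higher. The share that fell was close to that of all genes. Of 77 genes tested, 20 fell and 5 rose (edgeR's quasi-likelihood test, Benjamini-Hochberg adjusted p under 0.05 over all genes). Together this is 32.5% of them, whereas 51.1% of all genes tested passed in this comparison, 26.9% higher and 24.2% lower. Mitoribosomal genes thus passed at a lower rate than genes at large. The 20 of 77 that fell lie near the 24.2% of all genes, and the 5 of 77 that rose lie far below the 26.9%. The median log2 fold change of the mitoribosomal genes was -0.08, against 0.01 for all genes tested, and 53 of 77 values were below 0. Scaling by library size alone gave 10 higher and 16 lower. Removing the trend of fold change on exonic length gave 1 higher and 55 lower, with the median of all genes moved to -0.20.

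MRPS30, a mitochondria-specific protein of the large subunit (chromosome 5, 44808925 to 44815516), fell furthest. Its level was 99.3 and 99.0 CPM in both controls against 66.0, 65.8 and 65.1 in the DOT1L KO libraries, which is -0.60 ± 0.05 (SE) as a log2 fold change with an edgeR adjusted p of 9.58e-07. The 3 KO libraries lay within 1 CPM of each other and far below both controls. MRPS5, a core protein of the small subunit near the path of the messenger RNA (chromosome 2, 95085391 to 95122027), had 130 and 125 CPM in the controls against 95.5, 89.9 and 89.7, which is -0.48 ± 0.06 (SE) as a log2 fold change with an edgeR adjusted p of 1.54e-05. MRPS9, another core small subunit protein (chromosome 2, 105038025 to 105099960), had 64.1 and 62.7 CPM against 46.7, 45.8 and 44.3, which is -0.47 ± 0.06 (SE) as a log2 fold change with an edgeR adjusted p of 1.89e-05. For both genes no KO library reached the lower control. MRPL22, which lines the exit tunnel of the large subunit, went from 50.1 and 45.0 CPM to 36.7, 34.4 and 31.6, which is -0.48 ± 0.08 (SE) as a log2 fold change with an edgeR adjusted p of 0.000383. Smaller falls included MRPS28 (-0.44), MRPL19 (-0.41), MRPS2 (-0.40) and MRPL39 (-0.38).

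MRPS33, a small mitochondria-specific protein of the small subunit (chromosome 7, 141006161 to 141014981), rose most. It had 29.1 and 29.8 CPM in both controls against 44.2, 42.7 and 43.9 in the DOT1L KO libraries, which is 0.57 ± 0.07 (SE) as a log2 fold change with an edgeR adjusted p of 2.04e-05. The groups were far apart and each was tight. MRPL40 of the large subunit had 87.1 and 85.9 CPM against 115, 108 and 100, which is 0.32 ± 0.07 (SE) as a log2 fold change with an edgeR adjusted p of 0.00116, and 0.13 with the length trend removed, which did not pass. MRPS11, a core protein of the small subunit platform, had 36.3 and 35.6 CPM against 42.0, 41.9 and 43.9, which is 0.24 ± 0.07 (SE) as a log2 fold change with an edgeR adjusted p of 0.00989. The call of MRPS11 was lost without either control (edgeR adjusted p of 0.0503 without K562 control 1 and 0.0781 without K562 control 2), and its value was 0.01 with the length trend removed. MRPL24, a core protein of the large subunit, was less certain, with 38.5 and 29.7 CPM in the controls and 52.2, 42.7 and 40.5 in the KO (log2 fold change 0.40 ± 0.13, SE; edgeR adjusted p = 0.0197). Its value was 0.22 without K562 control 2 and 0.29 without DOT1L KO 1 and 0.17 with the length trend removed, and none of these passed. MRPL1 (0.21) was the remaining gene that rose. Removing the length trend also moved the median of all genes to -0.20 in this comparison. With the scaling kept as well, the calls of MRPL40, MRPS11 and MRPL24 were not lost.

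Both subunits held genes that changed. In the small subunit 9 of 25 genes tested fell and 2 rose, with a median of -0.10, and in the large subunit 11 of 51 fell and 3 rose, with a median of -0.07. By ancestry, 14 of the 45 proteins with a bacterial counterpart fell and 3 rose, and 6 of the 31 mitochondria-specific proteins fell and 2 rose. In the order given, 44.0%, 27.5%, 37.8% and 25.8% of these classes passed, against 51.1% of all genes tested. These classes were drawn up after the values were known and were not tested against each other.

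**Figure D3:**
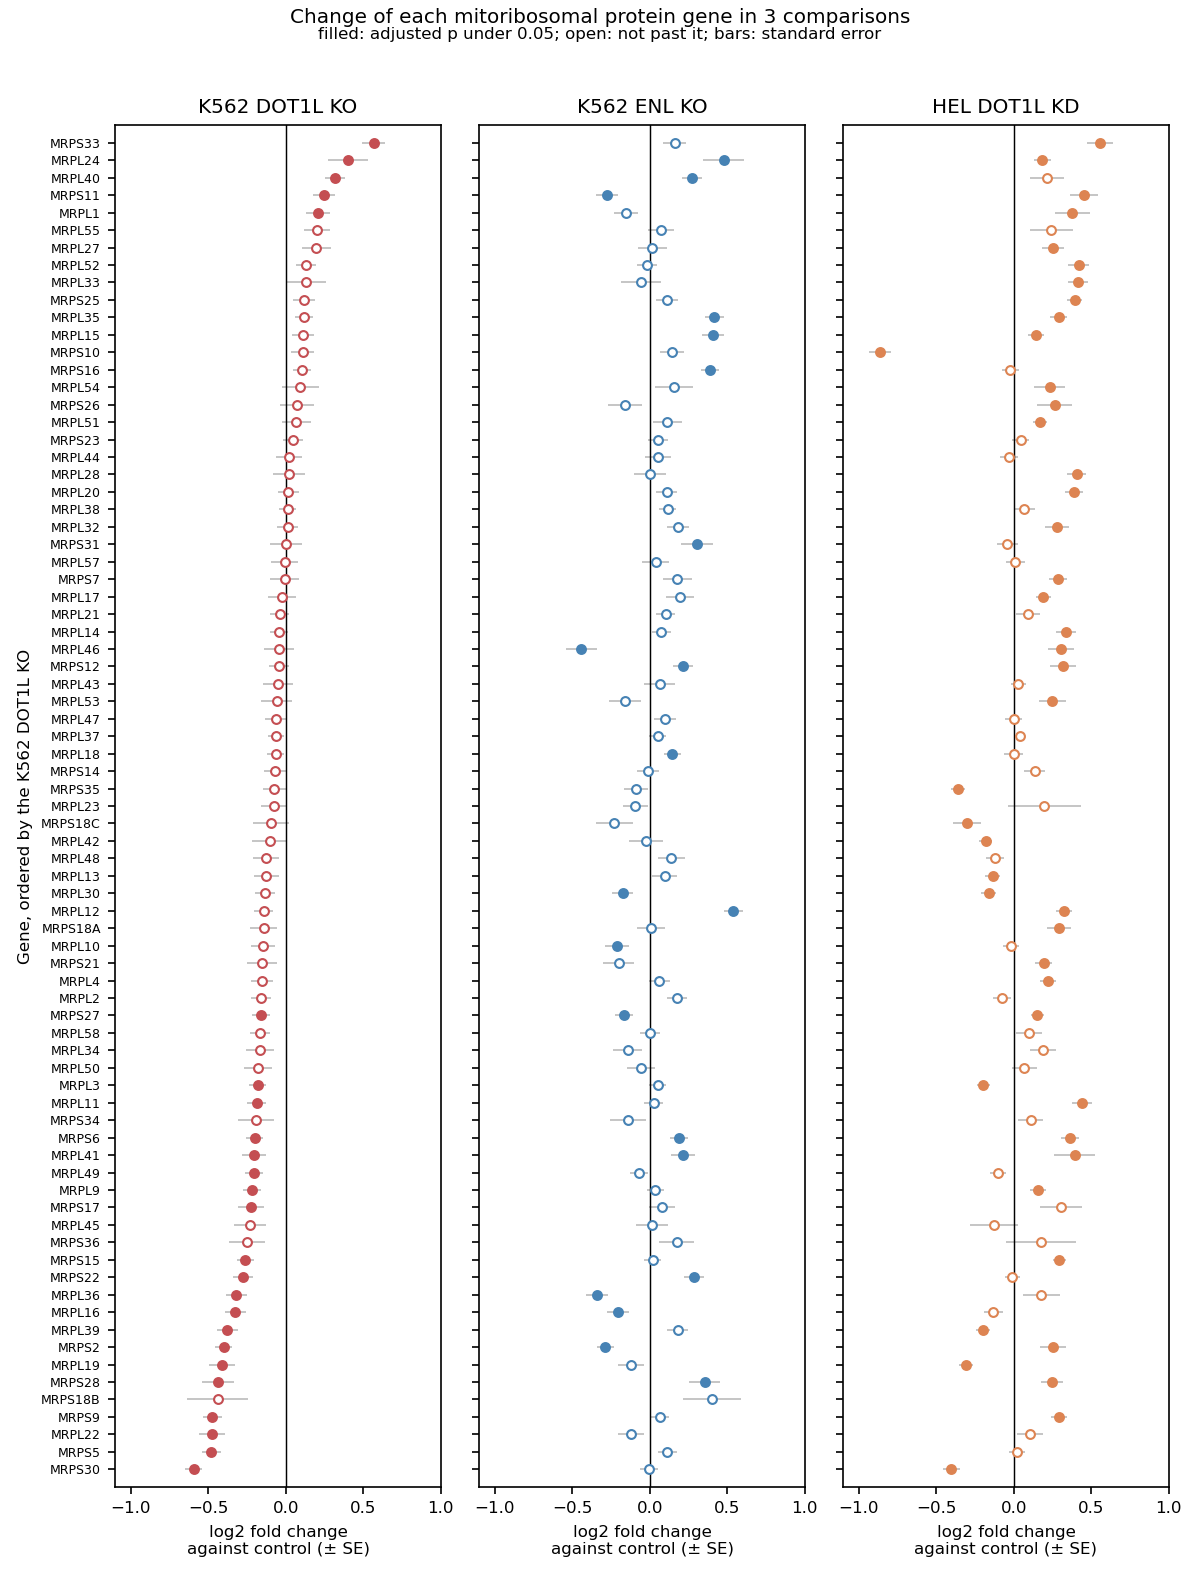
Log2 fold change against control (± SE) of the 77 genes tested in K562, ordered by the DOT1L KO, in K562 DOT1L KO, K562 ENL KO and HEL DOT1L KD; filled points passed an adjusted p of 0.05. The DOT1L KO panel runs from -0.60 (MRPS30) to 0.57 (MRPS33), the filled points of the ENL KO panel lie mostly above 0, and those of the HEL panel lie mostly above 0 with MRPS10 alone near -0.86.

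In the ENL KO more mitoribosomal mRNAs rose than fell. Of 77 genes, 13 rose and 8 fell in the ENL KO (edgeR's quasi-likelihood test), 27.3% of those tested. Of all genes tested, 41.0% passed, 18.8% higher and 22.2% lower. The 13 of 77 that rose thus lie near the 18.8% of all genes, and the 8 of 77 that fell lie below the 22.2%. The median of the mitoribosomal genes was 0.05, against 0.00 for all genes tested, and 51 of 77 values were above 0. The count rested on the controls: 13 passed without K562 control 1 and 10 without K562 control 2. With the trend of fold change on exonic length removed and the scaling kept, 9 rose and 13 fell and the median was 0.0088. With the trend removed and no scaling kept, 33 rose and 3 fell, and the median of all genes moved to 0.15.

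MRPL12 (chromosome 17, 81703370 to 81707526), the stalk protein and the most abundant of these genes per length in K562, rose most in the ENL KO. Control libraries had 189 and 184 CPM and DOT1L KO libraries 177, 167 and 163, whereas the ENL KO reached 284, 276 and 252. This was 0.54 ± 0.06 (SE) as a log2 fold change with an edgeR adjusted p of 1.31e-05, and every ENL KO library exceeded every other K562 library. MRPL35 of the large subunit had 86.8 and 87.7 CPM in the controls and 116, 115 and 118 in the ENL KO, which is 0.42 ± 0.06 (SE) as a log2 fold change with an edgeR adjusted p of 8.35e-05. MRPL15, a large subunit protein of bacterial ancestry, had 69.6 and 68.3 CPM against 94.6, 85.6 and 94.1, which is 0.41 ± 0.07 (SE) as a log2 fold change with an edgeR adjusted p of 0.000443. Both groups were clear of their controls. MRPL24 rose by 0.48 ± 0.13 (log2, SE; edgeR adjusted p = 0.0101), but its value was 0.30 without K562 control 2 and did not pass.

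MRPL46, a mitochondria-specific large subunit protein, fell most in the ENL KO. It had 29.6 and 34.2 CPM as control levels, 31.1, 30.6 and 31.2 without DOT1L and 24.5, 25.4 and 20.3 without ENL, which is -0.44 ± 0.10 (SE) as a log2 fold change with an edgeR adjusted p of 0.00295. Without K562 control 2 it was -0.33 and did not pass. MRPS11, its divergent neighbour, fell as well in the ENL KO, to 30.4, 30.0 and 28.7 CPM, which is -0.27 ± 0.07 (SE) as a log2 fold change with an edgeR adjusted p of 0.00734. It did not pass without K562 control 1 (-0.26) or with the length trend removed (-0.12). The latter setting moved the median of all genes up, as given above, and with the scaling kept as well the call of MRPS11 was not lost. MRPL36, a large subunit protein of bacterial ancestry, fell in both knockouts, by 0.34 in the ENL KO (edgeR adjusted p = 0.00174) and by 0.32 in the DOT1L KO (edgeR adjusted p = 0.00181). Its level was 46.6 and 43.4 CPM in the controls and between 34.7 and 37.1 in all 6 KO libraries. MRPS2 of the small subunit also fell in both, from 177 and 188 CPM to levels of 135 to 141 without DOT1L and of 143 to 156 without ENL.

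The 2 knockouts were then compared directly, without the controls. In the DOT1L KO 35 genes were lower and 5 higher than in the ENL KO, 51.9% of the 77, against 60.2% of all genes tested (31.8% higher, 28.3% lower). The median was -0.12, against 0.00 for all genes tested. MRPS28, a small subunit protein, had 21.5, 18.4 and 17.7 CPM without DOT1L against 36.4, 32.4 and 30.9 without ENL, which is -0.79 ± 0.09 (SE) as a log2 difference with an edgeR adjusted p of 4.8e-06. MRPL12 differed by -0.68 ± 0.06 (log2, SE; edgeR adjusted p = 1.54e-07). MRPS30 differed by -0.59 ± 0.05 (log2, SE; edgeR adjusted p = 2.37e-07), since in the ENL KO it kept 102, 95.7 and 99.1 CPM, close to the controls. In the other direction MRPS11 was higher in the DOT1L KO by 0.52 ± 0.06 (log2, SE; edgeR adjusted p = 9.13e-06), MRPS33 by 0.41, MRPL46 by 0.40, MRPL1 by 0.36 and MRPL52 by 0.15, a call that was lost without any 1 of 5 knockout libraries. With the length trend removed none of MRPS11, MRPS33 and MRPL46 passed here and MRPL52 turned to -0.15. That setting also moved the median of all genes below 0 in this contrast. With the scaling kept as well, none of these calls was lost. The ENL KO labels name no lane, and a batch difference cannot be told apart from this contrast either.

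**Figure D4:**
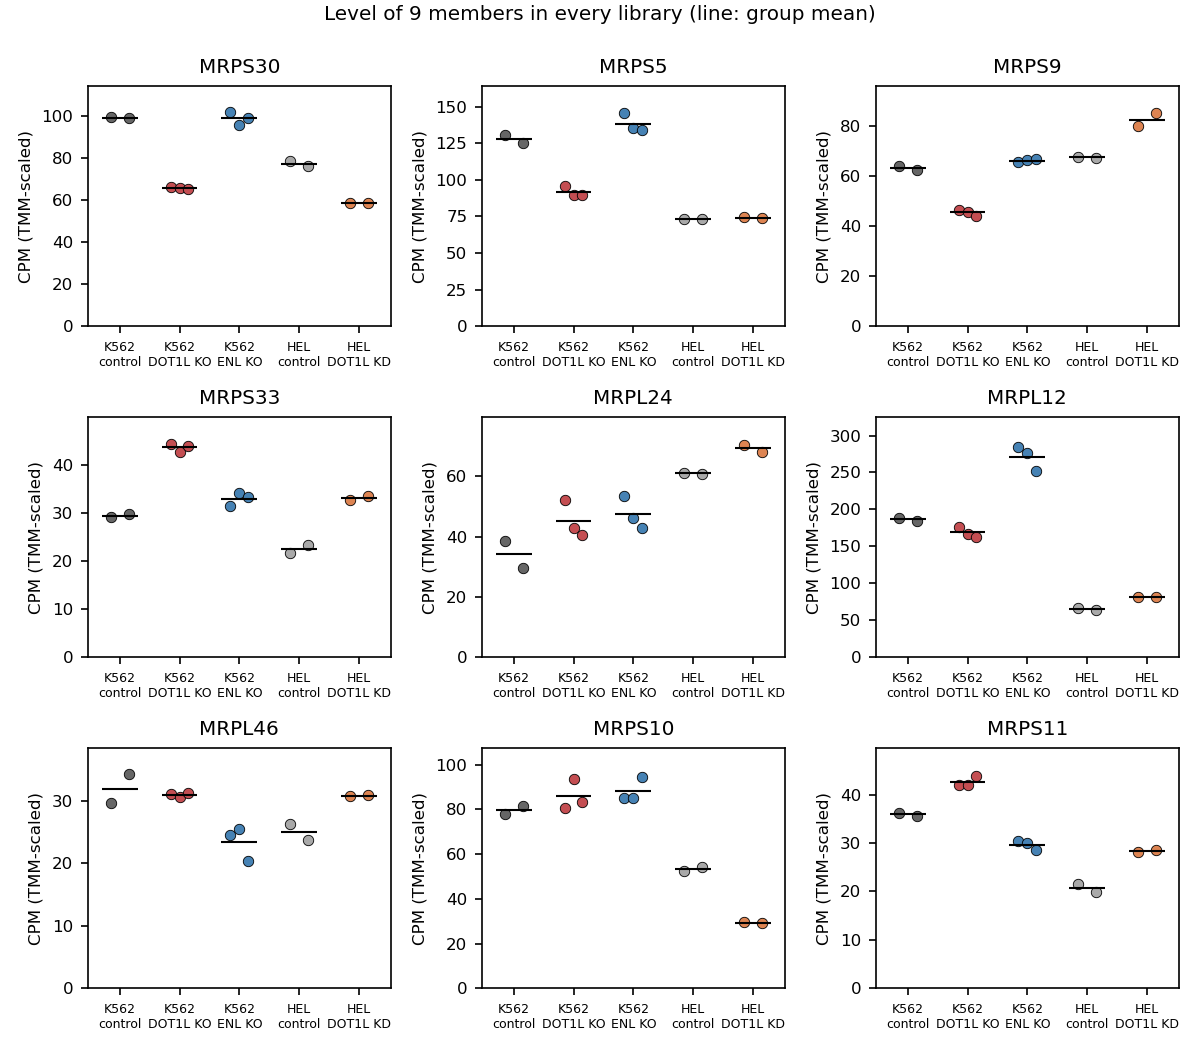
Level (TMM-scaled CPM, axis from 0) of 9 genes in each library (points) of the 5 groups, with group means as lines. Against the controls of the same line, MRPS30 is low in DOT1L-depleted K562 and HEL and MRPS33 is high in both, MRPS5 and MRPS9 are below the same line's controls in the K562 DOT1L KO and not in the HEL KD, MRPL12 is highest in the ENL KO and MRPS10 is below its controls in the HEL KD and not in the DOT1L KO.

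In the HEL DOT1L KD many mitoribosomal mRNAs were higher by small amounts and a few were lower, 1 of them by much more. Of 76 genes tested, 35 rose and 10 fell (edgeR's quasi-likelihood test), 59.2% of them, against 55.0% of all genes tested (27.0% higher, 28.0% lower). The median was 0.17, against 0.01 for all genes tested, and 54 of 76 values were above 0. These values moved with gene length. Mitoribosomal genes are short, with a median exonic length of 1410.5 bases against 3329 for genes tested in K562, and in HEL the log2 fold change fell with exonic length (Spearman's rho -0.137 over all 12635 genes and -0.376 over these genes). With that trend removed, 21 rose and 15 fell and the median was 0.07, and with the scaling kept as well 22 rose and 14 fell and the median was 0.06. DESeq2 called 19 higher and 7 lower.

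MRPS10, a core protein of the small subunit (chromosome 6, 42206801 to 42217895), fell most. It had 52.6 and 54.1 CPM in HEL controls against 29.6 and 29.1 after knockdown, which is -0.86 ± 0.07 (SE) as a log2 fold change with an edgeR adjusted p of 1.74e-15. In K562 it had 77.7 and 81.7 CPM in both controls against 80.4, 93.7 and 83.3 in the DOT1L KO libraries, groups that overlapped. MRPS30 fell in HEL too, from 78.5 and 76.0 to 58.4 and 58.6 CPM (log2 fold change -0.40 ± 0.05, SE; edgeR adjusted p = 8.99e-09). MRPS35 of the small subunit fell from 120 and 120 to 94.6 and 92.0 CPM (-0.36 ± 0.05, log2 and SE; edgeR adjusted p = 1.86e-09). MRPL19 of the large subunit fell from 114 and 114 to 91.8 and 92.3 CPM (-0.31 ± 0.05, log2 and SE; edgeR adjusted p = 9.39e-08). In each of these 4 genes both KD libraries lay below both controls.

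MRPS33 again rose most, from 21.7 and 23.3 CPM in the controls to 32.6 and 33.5 in the KD (log2 fold change 0.56 ± 0.08, SE; edgeR adjusted p = 1.57e-07). MRPS11 rose from 21.6 and 19.9 to 28.2 and 28.6 CPM (0.45 ± 0.09, log2 and SE; edgeR adjusted p = 2.15e-05). MRPL11, a large subunit protein at the base of the stalk, rose from 38.3 and 37.9 to 49.4 and 54.1 CPM (0.44 ± 0.07, log2 and SE; edgeR adjusted p = 1.77e-07). MRPL52 of the large subunit rose from 35.5 and 36.8 to 46.6 and 50.2 CPM (0.42 ± 0.07, log2 and SE; edgeR adjusted p = 8.54e-07). All 4 passed with the length trend removed. The paralogs of the S18 family went separate ways: MRPS18A rose (0.29), MRPS18C had -0.30 with uncertain counting, and MRPS18B was listed at 0. DESeq2 called neither MRPS18A nor MRPS18C, and MRPS18A did not pass with the length trend removed (0.17).

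The change after DOT1L depletion was then compared between the lines as an interaction, a contrast in which line, method of depletion and counting unit (reads or fragments) all differ at once. It differed for 32 of 77 genes, 30 of them higher in HEL and 2 lower, or 41.6% against 38.9% of all genes tested (19.8% higher, 19.1% lower). The median difference, HEL minus K562, was 0.22, against 0.01 for all genes tested. With the length trend removed and the scaling kept, 20 were higher and 3 lower with a median of 0.13, and without HEL KD 2 the count was 20. Genes that fell in the DOT1L KO and rose in the HEL KD numbered 9: MRPL9, MRPL11, MRPL41, MRPS2, MRPS6, MRPS9, MRPS15, MRPS27 and MRPS28. None did the reverse. The share of all genes with such opposite calls is not given here, so whether 9 is unusual cannot be said. How the calls of MRPS27 fared under other settings or without single libraries is not given either. Single libraries decided some of these calls: in K562 those of MRPL11, MRPL41 and MRPS6, and in HEL those of MRPL9, MRPL41 and MRPS2, were lost without 1 or more of them, and in HEL those of MRPL9, MRPL41 and MRPS28 were lost with the length trend removed. DESeq2 did not call MRPL9, MRPL41, MRPS2 or MRPS28 in HEL, and library-size scaling ended the K562 calls of MRPL11 and MRPL41. MRPS9 had the largest difference of these, 0.78 ± 0.09 (log2, SE; edgeR adjusted p = 3.51e-07): it fell in K562 as given above, while in HEL it rose from 67.8 and 67.5 to 80.2 and 85.4 CPM. MRPS15, which binds the small subunit RNA, fell in K562 from 104 and 104 to 87.7, 89.6 and 82.8 CPM and rose in HEL from 126 and 127 to 158 and 153 (difference 0.57 ± 0.08, log2 and SE; edgeR adjusted p = 4.45e-06).

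Some genes moved alike in both lines. MRPL1, MRPL24, MRPS11 and MRPS33 rose in both, and MRPL3, MRPL19, MRPL39 and MRPS30 fell in both. How the calls of MRPL1, MRPL3 and MRPL39 fared under other settings or without single libraries is not given here. MRPS33 rose by 0.57 in K562 and 0.56 in HEL, a difference of 0.01 ± 0.11 (log2, SE). MRPS30 fell in both lines, less in HEL, with a difference of 0.21 ± 0.08 (log2, SE; edgeR adjusted p = 0.0479) that no longer passed without either K562 control, DOT1L KO 2 or 3, or any HEL library. Of these genes only MRPL24 passed with 1 direction against the control in all 3 cases, and each of its calls depended on a library or setting. In HEL (0.18) it was lost with DESeq2, without HEL KD 1 (0.16) and with the length trend removed (0.032, or 0.040 with the scaling kept). In none of the 3 did 19 genes pass, among them MRPL37, MRPL43, MRPL44 and MRPS34. Of all genes tested, 51.1% passed in the DOT1L KO, 41.0% in the ENL KO and 55.0% in HEL. The shares of all genes with these joint patterns are not given here.

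**Figure D5:**
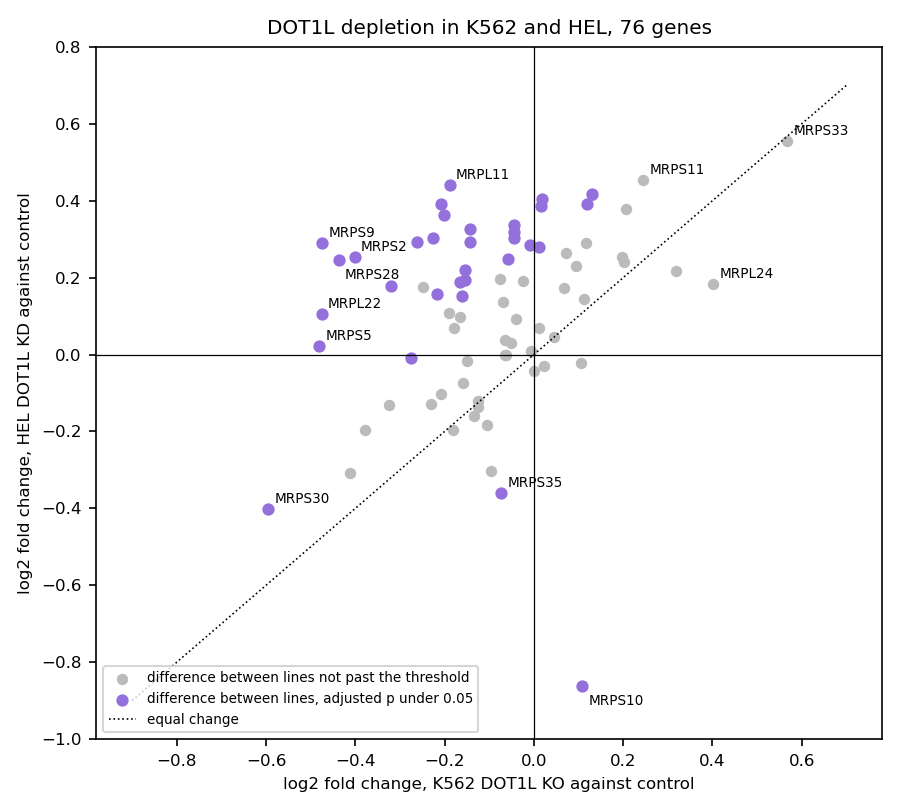
Each point is 1 of the 76 genes tested in both lines, with its log2 fold change in the K562 DOT1L KO on the horizontal axis and in the HEL DOT1L KD on the vertical axis; purple points differed between the lines by the interaction test and the dotted line marks equal change. Most purple points lie above the line, in the upper left MRPS9, MRPS28 and MRPS2, while MRPS10 lies far below it and MRPS33 on it.

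Promoter letters can be set beside the changes. In the DOT1L KO 0 of 22 genes with the YY1 letters rose and 6 fell, whereas of 46 without them 5 rose and 13 fell. Of 29 genes with the ETS letters 2 rose and 3 fell there, with a median of 0.00, and of 39 without them 3 rose and 16 fell, with a median of -0.16. In the HEL KD 13 of 29 genes with the ETS letters rose and 4 fell, and 19 of 38 without them rose and 5 fell. With the YY1 letters 10 of 21 rose and 3 fell in HEL, and without them 22 of 46 rose and 6 fell. Of all genes tested, 51.1% passed in the DOT1L KO and 55.0% in HEL. These counts describe small groups and the differences between them were not tested.

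Many of these genes start next to another gene that is read the other way, a layout in which 2 genes can share a promoter. With starts at most 1000 bases apart, 23 of the 78 genes (29.5%) had such a neighbour, against 16.6% of genes tested in K562. Each pair was counted once, where both partners passed. In HEL the partners moved the same way in 5 of 6 pairs. They also did so in 2 of 2 pairs in the ENL KO and 1 of 1 in the DOT1L KO. Between the knockouts they did so in 5 of 6, where the exception was MRPS18B with PPP1R10. MRPS18B and MRPS18C, which moved alike with HELQ in HEL, are among the genes with uncertain counting. The share moving alike among all such pairs of genes is not given here. MRPL46 and MRPS11 are each other's partner and fell together in the ENL KO and rose together in HEL (the HEL call of MRPL46 was lost without HEL control 2, with DESeq2 and with the length trend removed), whereas in the DOT1L KO MRPS11 rose and MRPL46 had -0.04. The exception in HEL was MRPL27, which rose (0.25) while EME1 fell (-0.28). MRPS30 has the noncoding RNA MRPS30-DT as its partner, at 0.095 to 0.465 CPM in the K562 controls and the DOT1L KO, 0.966 to 1.63 in the ENL KO and 6.84 to 7.91 in HEL. It rose in the ENL KO, where MRPS30 did not pass, and passed neither in the DOT1L KO nor in HEL, where MRPS30 fell. Between the knockouts this pair is counted above as moving alike, since both were lower in the DOT1L KO than in the ENL KO. Against the controls, however, they did not pass in the same knockout.

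Other parts of the mitochondrial translation apparatus were taken from lists. The counts of these lists stand beside the shares of all genes tested, of which 51.1% passed in the DOT1L KO, 41.0% in the ENL KO and 55.0% in HEL. Of 14 translation factors, 5 fell and 0 rose in the DOT1L KO, 7 rose and 0 fell in the ENL KO, and 3 rose and 4 fell in HEL. The ENL KO count was 2 without K562 control 1, 3 without K562 control 2 and 3 without ENL KO 2, and the DOT1L KO count was 3 without K562 control 1, 2 without K562 control 2 and 3 without DOT1L KO 3. GFM2, which recycles ribosomes, fell by 0.33 (log2) in the DOT1L KO and by 0.55 in HEL and rose by 0.30 in the ENL KO. MTIF2, the initiation factor, rose by 0.42 in the ENL KO, and GUF1, a GTPase that acts on the elongating ribosome, fell by 0.67 in HEL.

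A list of 6 genes held ribosomal proteins with other names and OXA1L, which is a membrane insertase and not a ribosomal protein. Of these, 1 fell in the DOT1L KO (GADD45GIP1, -0.20) and 1 rose and 1 fell in the ENL KO. In HEL 5 rose, led by AURKAIP1 (0.55). Fewer passed in HEL without HEL control 1, and in both knockouts without either K562 control. In the ENL KO the count was 0 without ENL KO 1 and 1 without ENL KO 2 or 3. Of 27 assembly factors, 1 of which (YARS2) is also among the synthetases below, 4 rose and 7 fell in the DOT1L KO, 3 rose and 1 fell in the ENL KO, and 10 of 26 tested rose and 2 fell in HEL. The largest changes were MTG1, a GTPase of large subunit assembly, in the DOT1L KO (0.55), NGRN in the ENL KO (-0.70) and MPV17L2 in HEL (0.56). The DOT1L KO count was 6 without either K562 control and 7 without DOT1L KO 2, and the ENL KO count was 1 without K562 control 1 and 2 without ENL KO 2.

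Of 20 mitochondrial aminoacyl-tRNA synthetases and related enzymes, 3 rose and 7 fell in the DOT1L KO, 4 rose and 3 fell in the ENL KO, and 7 of 19 rose and 5 fell in HEL. FARS2, which charges phenylalanine tRNA, fell by 0.71 in the DOT1L KO, WARS2 fell by 0.46 in the ENL KO and GATB rose by 0.46 in HEL. The ENL KO count was 1 without K562 control 1, 2 without K562 control 2 and 2 without ENL KO 2. Of 14 genes of mitochondrial transcription and DNA maintenance, 2 rose and 2 fell in the DOT1L KO (2 in all without K562 control 2), 1 rose and 1 fell in the ENL KO, and 3 rose and 3 fell in HEL. TFB2M, a transcription factor of mitochondrial DNA, rose by 0.44 in the DOT1L KO, POLG, its polymerase, fell by 0.82 in the ENL KO and TFAM, its packaging protein, fell by 0.54 in HEL.

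Of 9 regulators tested that are known to act on these genes, 1 rose and 3 fell in the DOT1L KO (2 in all without DOT1L KO 3), 2 rose and 1 fell in the ENL KO and 2 rose and 3 fell in HEL. MYC fell in all 3 comparisons, with 531 to 570 CPM in the K562 controls, 391 to 395 without DOT1L and 341 to 359 without ENL. HEL libraries had 430 to 441 CPM as controls and 374 to 382 after knockdown. Its log2 fold changes were -0.49, -0.66 and -0.20. YY1 fell slightly in the DOT1L KO (-0.16) and in HEL (-0.19) and had -0.01 in the ENL KO. NRF1 rose in the DOT1L KO (0.23) and passed nowhere else. GABPB1, a subunit of GABP, fell in HEL (-0.48), GABPB2 rose in the ENL KO (0.79), and the DNA-binding subunit GABPA passed in none. The coactivator PPARGC1B fell in the DOT1L KO (-0.23) and rose in the ENL KO (0.24) and in HEL (0.41). ESRRA rose in HEL (0.34), PPRC1 passed in none, and PPARGC1A was at or near 0 in all libraries.

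Erythroid identity genes moved as well. In the DOT1L KO 7 of 8 rose and 1 fell, in the ENL KO 5 rose and 1 fell, and in HEL 6 rose, where 51.1%, 41.0% and 55.0% of all genes tested passed. Their summed level was 5149 to 5546 CPM in the K562 controls, 6371 to 6813 without DOT1L and 5510 to 5624 without ENL, and in HEL 5340 to 5437 in the controls and 7479 to 8157 in the KD. The 8 markers of other cell types summed to 117 to 119 CPM in the K562 controls, 347 to 382 without DOT1L and 104 to 117 without ENL, and in HEL to 335 to 342 and 569 to 573. LYZ held most of that sum in the DOT1L KO and PECAM1 in HEL, and CD3E and MS4A1 stayed at or near 0. The part of these shifts in the mitoribosomal changes was not tested.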

How the data were processed

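Gene counts were used as the authors deposited them: fragment counts for K562 and read counts for HEL, not normalized, per the file headers. The submitters' processing notes name fastp 0.13.1, HISAT2 2.1.0, featureCounts 1.6.1, hg38 and hg19 without their roles. Use of strand in counting is not given in the sources used here, so overlapping genes are uncertain. Genes were filtered with filterByExpr (minimum count 10, minimum total 15) and scaled with TMM in edgeR 4.0.16 (R 4.3.3). Tests used edgeR's quasi-likelihood method, in fits of 8 K562 libraries, of 4 HEL libraries and, for the interaction, of 9, with Benjamini-Hochberg adjustment over all genes and a threshold of 0.05. Standard errors of log2 fold changes were derived from the F statistic. The scripts were tested on simulated data. The symbol rule uses no values, but this family, the gene lists and the promoters shown were chosen with earlier results of these data known. Named genes were the 4 largest increases and decreases per comparison with a control whose groups did not overlap, shared or opposite changes, the levels' extremes, the S18 paralogs, genes filtered as low and each list's largest change. Genes named beyond these, such as MRPL1, MRPL3, MRPL39, MRPS27 and the neighbours, were chosen after their values were seen. Alternatives were other scalings, no filter, DESeq2 1.42.0, length trends, a replicate block, other sets of libraries and a larger fold change. The other assays of the series were not analysed here.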

Additional observations from a re-analysis of the deposited data

Results flagged for a closer look

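For 18 of the 32 named mitoribosomal genes the change after DOT1L depletion differed between HEL and K562 by the interaction test (edgeR, adjusted p under 0.05). Many of them were named for their changes in these same data, opposite changes included, so these calls are not independent support. Of all 77 mitoribosomal genes tested 32 passed (41.6%), against 38.9% of all genes tested. The difference is given as HEL minus K562 on the log2 scale. Among small subunit genes it was 0.78 for MRPS9, 0.70 for MRPS28, 0.67 for MRPS2, 0.58 for MRPS6, 0.57 for MRPS15, 0.52 for MRPS5, -0.27 for MRPS35 and -0.95 for MRPS10. Among large subunit genes it was 0.65 for MRPL11, 0.62 for MRPL41, 0.60 for MRPL22, 0.51 for MRPL36, 0.49 for MRPL12, 0.45 for MRPS18A, 0.39 for MRPL9, 0.37 for MRPL46, 0.31 for MRPL52 and 0.21 for MRPS30. The adjusted p ran from 3.25e-07 (MRPS10) to 0.0479 (MRPS30). The differences of MRPL41, MRPL46, MRPL52, MRPS30 and MRPS35 no longer passed when some single libraries were left out. With the length trend removed and the scaling kept, those of MRPL36, MRPL46, MRPL52 and MRPS30 did not pass, and with the trend removed alone that of MRPS35 did not. DESeq2 called neither MRPL46 nor MRPS30, and MRPS30 was also lost with library-size scaling and with no filter on low counts.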

How the results depend on the processing

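Of 836 values of named changes under alternatives with all libraries, 784 kept direction and side of the threshold, 50 no longer passed and 2 reversed: MRPL52 between the knockouts (-0.15 with the length trend removed) and MRPL51 in HEL (-0.017 with the scaling kept as well). Of 519 values with 1 library left out, 62 no longer passed and none reversed. Removing the length trend moved the median of all genes to -0.20 in the DOT1L KO, 0.15 in the ENL KO, -0.36 between them and 0.16 in the interaction, so its counts of 56, 36 and 69 members and its medians of -0.29, 0.17, -0.44 and, for the interaction, 0.32 carry that shift. With the scaling kept, a setting added after seeing the data, the median was 0.0088 in the ENL KO, 0.059 in HEL and 0.13 in the interaction, and without it 0.071 in HEL. Library-size scaling gave medians of -0.065 between the knockouts and 0.21 in HEL, and upper-quartile scaling 0.25 in HEL. DESeq2 called 26 members in HEL. At an absolute log2 fold change of 0.5 or more, 2, 1, 9, 2 and 12 members remained in the DOT1L KO, the ENL KO, between them, in HEL and in the interaction. Of all genes tested, 4087, 2999 and 4689 of 14301, 2454 of 12635 and 3904 of 15367 remained, in the same order. Leaving out 1 library gave 10 to 19 members and medians of 0.034 to 0.083 in the ENL KO, medians of -0.16 to -0.10 between the knockouts and 0.13 to 0.17 in HEL, and 20 to 39 members in the interaction. The cause of these shifts was not tested.

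The replicate numbers were not taken as pairs. Same-numbered DOT1L KO and ENL KO libraries correlated in their deviations at 0.68, 0.0946 and 0.331, and DOT1L KO 2 correlated best with ENL KO 3. Same-numbered K562 control and DOT1L KO libraries correlated at 0.461 and 0.312, in each case the highest value of that control with a DOT1L KO library. For control and ENL KO the values were 0.485 and 0.0927, and control 2 correlated best with ENL KO 3 (0.431). Same-numbered HEL libraries had -0.0375. In a group of 2 libraries the deviations mirror each other, so values that involve such a group are not separate checks. With the replicate number as a block, 37 members passed in the DOT1L KO, 35 in the ENL KO (24 higher, 11 lower), 51 between the knockouts, 45 in HEL and 36 in the interaction. Of all genes, 8340 passed with the block in the DOT1L KO. Apart from this count and those at the 0.5 cutoff, counts of all genes are not given for the settings of this section.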
